A study of Homo sapiens with 4 samples.

Results

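TRIM genes encode a large family of RING-type proteins, and PML, the protein that was immunoprecipitated here, is itself a member (TRIM19). The family was taken from the annotated PML peak table as the protein-coding genes whose symbol is TRIM followed by a digit. This gave 42 genes with 111 peaks, of 13948 protein-coding genes and 68937 peaks in the whole list. PML was mapped on DNA by ChIP-seq in MDA-MB-231, an established cell line from a human triple-negative breast cancer, with an antibody from Bethyl Laboratories (A301-167A). There were 2 PML libraries and 2 input libraries of this line, for which the labels name no treatment, and the authors merged the duplicates before the list was made. No value therefore has a replicate error, there is 1 condition, and the read depth is unknown. All peak positions are hg38.

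Most TRIM proteins carry a RING finger, 1 or more B-box zinc fingers and a coiled coil, followed by a C-terminal part that sets the class and often the partners. Many act as E3 ubiquitin ligases, which work with E2 enzymes of the UBE2 family to mark other proteins. Some TRIM proteins restrict viruses or tune antiviral signalling, others act on chromatin, microtubules or muscle, and several primate-specific copies arose by recent duplication. PML uses its tripartite motif to build PML nuclear bodies.

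The stretches of DNA that the results turn on are the 150 bases before the start sites of 6 genes, from RefSeq (GRCh38.p14), written 5′ to 3′ on the strand of the gene with each CpG pair in capitals. TRIM41 (chr5:181223131-181223280, plus strand), TRIM7 (chr5:181205197-181205346, minus strand) and TRIM44 (chr11:35662625-35662774, plus strand) are shown because they had the highest-scoring promoter peaks of the family. TRIM21 (chr11:4393703-4393852, minus strand) and TRIM5 (chr11:5685075-5685224, minus strand) are shown as antiviral genes with no peak at the start site. TRIM49B (chr11:49028673-49028822, plus strand) is shown as a recent duplicate, also with no peak there. None of the 6 stretches overlapped another RefSeq gene. They held 16, 15, 9, 2, 5 and 0 CpG pairs, in the order TRIM41, TRIM7, TRIM44, TRIM21, TRIM5 and TRIM49B.
TRIM41: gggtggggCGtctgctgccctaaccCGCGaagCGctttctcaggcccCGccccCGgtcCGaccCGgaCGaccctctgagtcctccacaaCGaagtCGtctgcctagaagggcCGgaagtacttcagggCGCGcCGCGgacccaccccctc
TRIM7: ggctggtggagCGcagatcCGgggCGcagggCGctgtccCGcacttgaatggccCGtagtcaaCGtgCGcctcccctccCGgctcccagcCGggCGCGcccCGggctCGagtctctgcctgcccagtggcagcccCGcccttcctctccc
TRIM44: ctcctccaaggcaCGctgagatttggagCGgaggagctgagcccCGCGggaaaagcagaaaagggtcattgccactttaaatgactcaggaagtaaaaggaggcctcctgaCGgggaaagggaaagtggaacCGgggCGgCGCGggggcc
TRIM21: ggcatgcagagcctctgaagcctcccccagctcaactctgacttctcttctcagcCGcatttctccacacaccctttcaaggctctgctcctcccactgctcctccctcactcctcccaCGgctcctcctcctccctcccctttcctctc
TRIM5: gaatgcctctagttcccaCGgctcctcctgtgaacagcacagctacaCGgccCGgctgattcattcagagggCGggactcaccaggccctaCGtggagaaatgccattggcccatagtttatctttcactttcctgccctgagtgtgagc
TRIM49B: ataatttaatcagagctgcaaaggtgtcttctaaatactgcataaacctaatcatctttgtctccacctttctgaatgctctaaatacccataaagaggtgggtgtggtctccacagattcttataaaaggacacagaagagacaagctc

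A promoter peak is here a peak centred within 1000 bp of a transcription start site (TSS), for which the table names the gene as nearest. Of the 42 TRIM genes, 28 had one (66.7%, exact 95% interval 50.5 to 80.4%), against 78.6% of all protein-coding genes named in the table (10958 of 13948). The interval covers counting error only, as do all those below, and it includes the share of all genes. The score of a peak comes from the authors' table, on a scale that is not stated, and serves only to order peaks within the list. The highest promoter score had a median of 71.5 over the 28 TRIM genes, with quartiles at 43.5 and 136 and a range from 21 to 600. The median over all genes with a promoter peak was 63, and 16 TRIM genes lay above it against 12 at or below. Among the 28 genes, 26 had 1 promoter peak, and TRIM7 and TRIM46 had 2 each.

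The role groups of the family differed most at the recent duplicates. Of 21 broadly expressed TRIM genes, 17 had a promoter peak (81.0%, interval 58.1 to 94.6%), with a median score of 88. Of 6 genes grouped as immune for antiviral or interferon-linked roles, 4 had one (66.7%, interval 22.3 to 95.7%), with a median of 43.5. Each gene was put in a single group. Some genes grouped as broadly expressed, among them TRIM41, TRIM65, TRIM4 and TRIM26, also have such roles. The immune share and median therefore depend on the grouping chosen. Of 9 tissue-restricted genes 7 had a promoter peak (77.8%, interval 40.0 to 97.2%), with a median of 75. None of the 6 recent duplicates named in the table had one (upper limit 45.9%). That limit treats them as independent, although such copies share sequence. The intervals of the broadly expressed, immune and tissue-restricted genes overlap, and the 6 immune genes leave that share nearly undefined. Overlap of intervals, here and below, does not show that shares are alike, and no direct comparison was run. Without the recent duplicates, 28 of 36 TRIM genes had a promoter peak (77.8%, interval 60.8 to 89.9%), close to the share of all genes. Here and below, leaving out a group with no such peak could only raise the TRIM share. No genes were left out of the share of all genes, and the part of the duplicates in the lower TRIM share was not tested.

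The table names a gene only where it is nearest to some peak, so genes with no peak nearby drop out of these shares. RefSeq lists 77 protein-coding TRIM genes, 2 of them read-through genes; 41 of these are named in the table and 36 are not. TRIM16L, a transcribed pseudogene in RefSeq, is the remaining named gene. Counted at the RefSeq start site, whichever gene the table names, 33 of the 77 TRIM genes had a peak within 1000 bp (42.9%, interval 31.6 to 54.6%), against 61.7% of all RefSeq protein-coding genes (12362 of 20033). By this count the broadly expressed group had 21 of 27 (77.8%, interval 57.7 to 91.4%), the immune group 4 of 10 (40%, interval 12.2 to 73.8%) and the tissue-restricted group 8 of 22 (36.4%, interval 17.2 to 59.3%). The recent duplicates had 0 of 16 (upper limit 20.6%, which again treats copies that share sequence as independent). Without them 33 of 61 TRIM genes had a start-site peak (54.1%, interval 40.8 to 66.9%). The broadly expressed genes were above the share of all genes by this count, with an interval that includes it, and the other 3 groups were below it, the immune group with an interval that includes it. In all, 34 RefSeq TRIM genes had no peak in the gene body or at the start. The same count was not made for other genes, so it does not set the family apart.

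**Figure D1:**
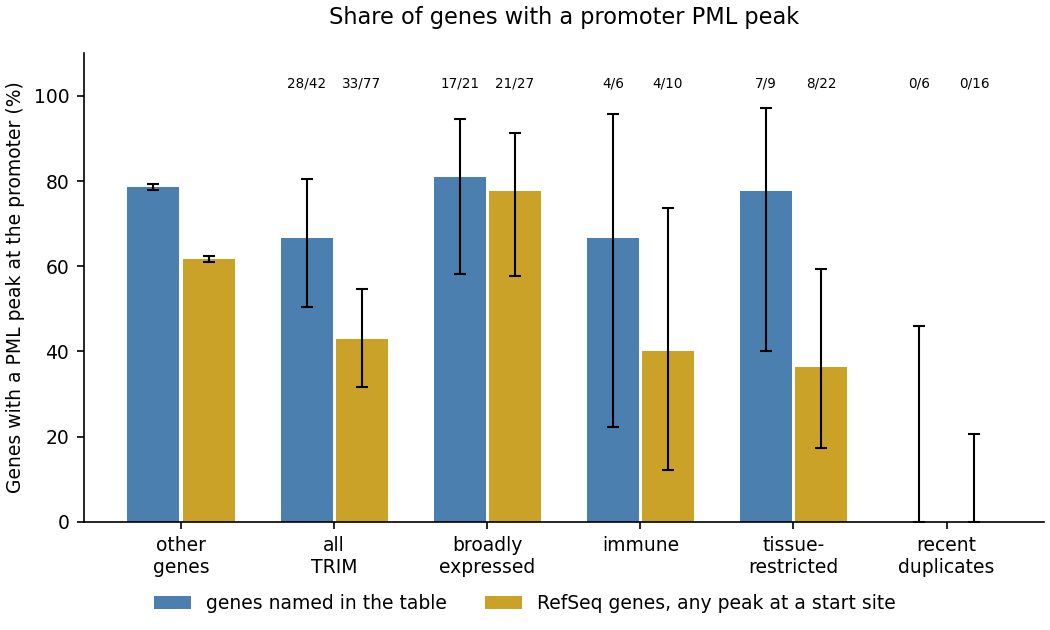
Bars give the percentage of genes with a PML peak at the promoter, with exact 95% intervals, among genes named in the table (blue) and among RefSeq genes for a peak at any start site (yellow); counts stand above the bars of the TRIM groups. The recent duplicates are at 0 by both counts, and the broadly expressed genes at 81.0 and 77.8%.

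As nearest relatives in function, other RING genes and their E2 partners were counted the same way. Of 67 RNF genes named in the table, which encode other RING finger proteins, 58 had a promoter peak (86.6%, interval 76.0 to 93.7%), with a median score of 75. Of 33 UBE2 genes, which encode E2 enzymes, 31 had one (93.9%, interval 79.8 to 99.3%), with a median of 90. The TRIM interval overlaps both of these intervals, that of the UBE2 genes only between 79.8 and 80.4%. At RefSeq start sites the shares were 75.3% of 85 RNF genes (interval 64.7 to 84.0%) and 83.3% of 36 UBE2 genes (interval 67.2 to 93.6%), and both intervals lie above that of the 77 TRIM genes. Without the recent duplicates the TRIM interval (40.8 to 66.9%) overlaps that of the RNF genes and lies just below that of the UBE2 genes.

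The broadly expressed genes held the highest scores of the family apart from TRIM7. TRIM41, an E3 ligase that can mark viral nucleoproteins, led with a score of 600, rank 29 of the whole list. Its peak ran on chromosome 5 from 181221531 to 181224898, 3368 bp wide, in the promoter class and centred 67 bp upstream of the TSS. TRIM44, which has no RING but a zinc finger of the deubiquitinase kind, had a score of 264. That peak, at chromosome 11 from 35662381 to 35663502, was annotated to the 5′ UTR and centred 166 bp into the gene.

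TRIM28 and TRIM24, chromatin-bound proteins with a PHD finger and a bromodomain, followed. TRIM28 (KAP1), the co-repressor recruited by KRAB zinc-finger proteins, had a score of 198 at chromosome 19 from 58544003 to 58545218, in the 5′ UTR and 546 bp from the TSS. TRIM24, a co-regulator of nuclear receptors and a ligase for p53, had 175 at chromosome 7 from 138460045 to 138461381, in exon 1 of 19 and 454 bp from the TSS. Their relative TRIM33, which binds SMAD4, had a score of only 21, at chromosome 1 from 114510319 to 114510743, in intron 1 over a CpG island and 672 bp from the TSS. TRIM33 was thus at the bottom of the family's scores, while its relatives TRIM28 and TRIM24 were the fourth and the fifth from the top.

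TRIM62, a regulator of epithelial polarity in mammary cells, had a score of 150 at chromosome 1 from 33180541 to 33181996, in exon 1 of 5 and 775 bp from the TSS. TRIM8, which modulates p53 and cytokine signalling, had 139 at chromosome 10 from 102643748 to 102645218, in the promoter class and 12 bp upstream of the TSS. TRIM13, a ligase anchored in the endoplasmic reticulum, had 130 at chromosome 13 from 49996166 to 49997624, 147 bp upstream. These 3 ranked between 1928 and 2621 in the whole list. TRIM11, a ligase of protein quality control, had 103 at chromosome 1 from 228405556 to 228407935, 2380 bp wide and 90 bp from the TSS. TRIM27, first found as a fusion partner of RET, had 88 at chromosome 6 from 28923161 to 28924402, in the 5′ UTR and 204 bp from the TSS.

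The other broadly expressed genes with a promoter peak scored between 21 and 68. TRIM37, a ligase that acts at centrosomes, had 68, and TRIM35 and TRIM2 had 48 each. TRIM65 and TRIM4, which act on RNA-sensing pathways, had 44 and 42, and TRIM3 had 26. TRIM26, a regulator of interferon signalling in the MHC region, had 21 at chromosome 6 from 30213644 to 30213924, in the promoter class and 378 bp upstream of the TSS. With TRIM33 and TRIM69, TRIM26 shared the lowest promoter score of the family.

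**Figure D2:**
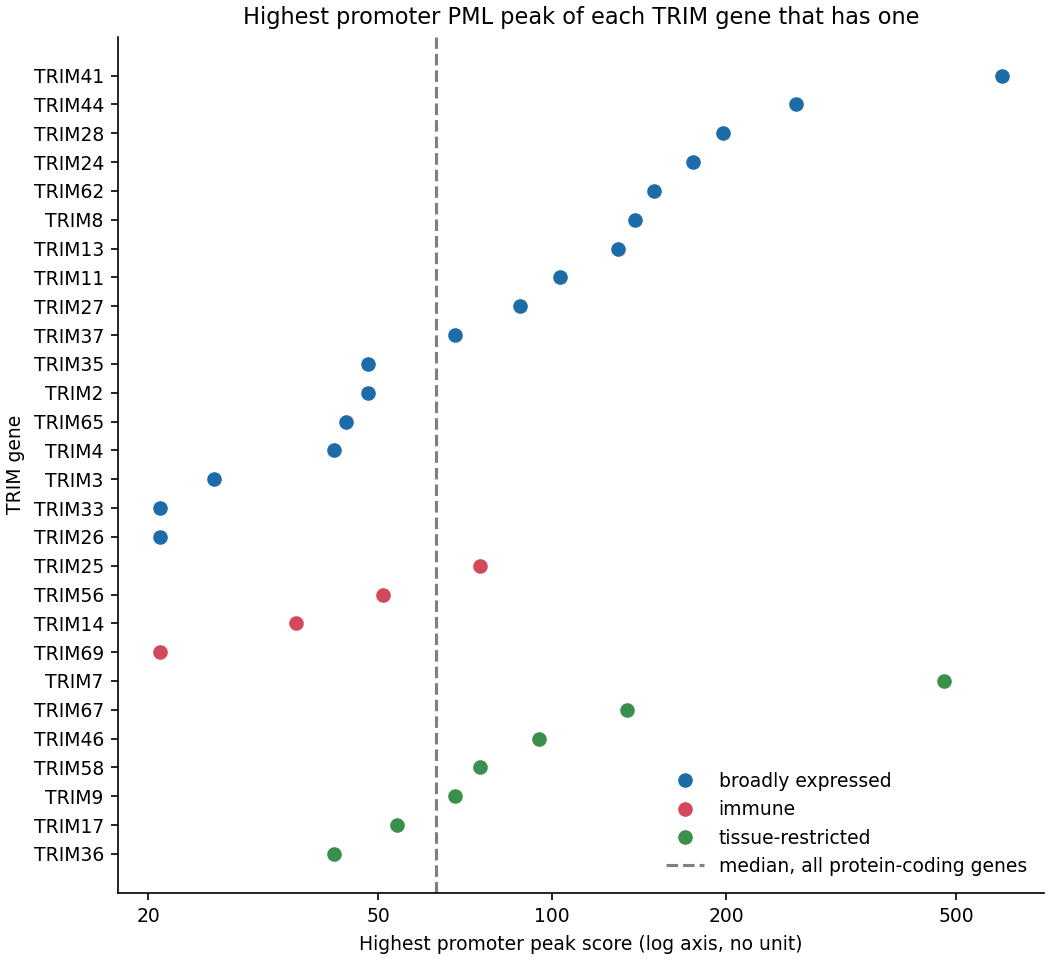
Each point is the highest promoter peak score of 1 TRIM gene, on a log axis with no unit, grouped by role; the dashed line is the median of 63 over all protein-coding genes with a promoter peak. The immune genes run from 21 to 75, while TRIM41 and TRIM7 stand at 600 and 477.

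The TRIM genes grouped as immune had promoter peaks of low to middling score. TRIM25, the interferon-induced ligase that activates the RNA sensor RIG-I, had 75 at chromosome 17 from 56913282 to 56914468, in exon 1 of 9 and 174 bp from the TSS. TRIM56, which acts in cytosolic DNA sensing, had 51 at chromosome 7 from 101085072 to 101085912, in the promoter class and 11 bp from the TSS. TRIM14, an adaptor of antiviral signalling at mitochondria, had 36 at chromosome 9 from 98119160 to 98119480, 98 bp upstream. TRIM69, an interferon-induced inhibitor of some RNA viruses, had 21 at chromosome 15 from 44736244 to 44736626, 93 bp upstream. Of the 4, only TRIM25 was above the median of 63 over all genes. TRIM21, the cytosolic antibody receptor, had 1 peak, with a score of 26, in intron 3 and 5042 bp from the TSS. TRIM6, which makes unanchored ubiquitin chains in interferon signalling, had 1 peak, with a score of 26, in an LTR12C element 6132 bp upstream. The capsid-binding restriction factor TRIM5 and the antiviral genes TRIM22, TRIM34 and TRIM38 were nearest to no peak.

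Tissue-restricted genes included the second-highest promoter score of the family. TRIM7, a ligase that binds glycogenin, had 477 (rank 52 of the list) at chromosome 5 from 181203540 to 181206301, 2762 bp wide, in the promoter class and 276 bp from the TSS. A second TRIM7 promoter peak, with a score of 42, lay in exon 3 of 7 from 181199824 to 181200312, 862 bp from a TSS. TRIM67, a neuronal protein linked to netrin signalling, had 135 at chromosome 1 from 231161819 to 231164173, 2355 bp wide and 68 bp from the TSS. TRIM46, which bundles microtubules at the axon initial segment, had 95 at chromosome 1 from 155172713 to 155174455, 203 bp upstream, and a second peak with a score of 36 from 155174805 to 155175113. The remaining 4 were TRIM58, which acts in red cell maturation, with 75, TRIM9, a neuronal ligase, with 68, TRIM17 with 54 and TRIM36 with 42. So some genes known for expression in neurons or blood also carried promoter peaks in this breast cancer line, although expression was not measured here. Of the 22 RefSeq genes of the tissue-restricted group, 14 had no start-site peak.

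Classes were counted for TRIM symbols only, so TRIM proteins under other symbols, such as MID1 and MID2, are left out. By C-terminal class, the 4 such genes with the COS, FN3 and SPRY arrangement that binds microtubules (TRIM9, TRIM36, TRIM46 and TRIM67) all had a promoter peak. Their median score was 81.5. The PHD and bromodomain class had 3 of 4, and at RefSeq start sites 4 of 4. The NHL class, whose C-terminal propeller binds RNA or protein, had 2 of 4, TRIM2 and TRIM3. The PRY-SPRY class, the largest and the one that holds most antiviral and duplicated genes, had 13 of 22 (59.1%, interval 36.4 to 79.3%) and, at RefSeq start sites, 14 of 42 (33.3%, interval 19.6 to 49.5%). The first PRY-SPRY interval includes the 78.6% of all named genes, and the second lies below the 61.7% of all RefSeq genes. Of those 42 genes 14 are recent duplicates. Classes of 4 genes or fewer have intervals too wide to order them.

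The 1000 bp window put some genes on either side by a small margin. Just inside were TRIM62 at 775 bp and the second TRIM7 peak at 862 bp. Just outside was TRIM47, whose only peak (score 55, chromosome 17 from 75876014 to 75878911) was centred 1119 bp into the gene but was 2898 bp wide and reached its RefSeq promoter window. TRIM66, a testis-linked relative of TRIM28 that was grouped as broadly expressed, was next, with its nearest peak (score 36) 1620 bp into the gene. TRIM16L had a peak of score 42 centred 2810 bp upstream. TRIM55, a muscle RING protein, had peaks of 84 and 139 centred 2828 and 13515 bp upstream of the TSS named in the table. The other named broadly expressed or tissue-restricted genes without a promoter peak had their peaks far from the TSS. TRIM32, mutated in a limb-girdle muscular dystrophy, had its 1 peak (score 26, in an SVA_C element) 153687 bp from the TSS. TRIM71, an RNA-binding ligase of stem cells, had 2 peaks inside the gene. The nearer of these (score 17) was in intron 1, 54907 bp from the TSS.

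Because each peak is given to 1 gene, some TRIM start sites lay under a peak named for a neighbour. TRIM52, a short TRIM protein with no SPRY domain, was not named in the table, but a peak with a score of 386 (rank 97) from 181259973 to 181262733 on chromosome 5 lay at its start site and was given to TRIM52-AS1. The TRIM66 start site lay under a peak of 91 given to RPL27A, the TRIM59 start site under a peak of 55 given to TRIM59-IFT80, and the TRIM39 start site under a peak of 42 given to HCG18. For TRIM55 a peak of 139 lay over the upstream end of the RefSeq gene, 13515 bp upstream of the TSS named in the table. These 5 genes make up the rise from 28 to 33. Reads at such shared promoters do not tell the 2 genes apart.

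Peaks away from promoters made up most of the family's list, as they did for other genes. Of the 111 TRIM peaks, 30 (27.0%) lay within 1000 bp of a TSS and 48 (43.2%) over 10000 bp away, against 24.4% and 52.8% for all peaks of protein-coding genes. TRIM promoter peaks were 934.5 bp wide in the median, with a score of 68, and the others 454 bp with a score of 28. For all protein-coding genes these values were 764.5 bp and 61 within 1000 bp, and 405 bp and 31 beyond. The annotation named a repeat for 21 TRIM peaks (18.9%, against 22.2% for all), and for none of the 30 promoter peaks. It named one for 87 of 12106 promoter peaks of all protein-coding genes (0.719%). In the family, repeats and CpG islands were named only for intron and intergenic peaks, never for those annotated as promoter, exon or UTR. The low counts at promoters therefore cannot show that promoter peaks lack repeats.

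A few distal peaks scored as high as the promoter peaks. The highest was given to TRIM43B (score 259) and lay in an intergenic CpG island on chromosome 2 from 95525298 to 95527331, 41583 bp from that gene. TRIM56 had a peak of 181 on chromosome 7 from 101100147 to 101101397, 15291 bp downstream of its TSS, higher than its own promoter peak of 51. TRIM55 had the peak of 139 already named (chromosome 8 from 66112813 to 66114416) and that of 84 (66123964 to 66124639). The peak of 139 is distal to the TSS named in the table, but lies at the upstream end of the RefSeq gene. TRIM7 had a peak of 128 from 181206609 to 181207970, in an AluSg element 2093 bp upstream, and TRIM8 a peak of 95 from 102627614 to 102628096, 16640 bp upstream. The nearest gene need not be the gene that such a peak serves.

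The number of peaks per gene had a median of 2 in the family and among all genes. Of the 42 genes, 20 had a single peak and 9 had 5 or more, and of all 13948 protein-coding genes 5897 and 2911 did. TRIM62 had 10, with the promoter peak of 150 far above the other 9, which scored from 17 to 41 and lay mostly inside or downstream of the gene. TRIM8 had 8 and TRIM43 had 7. TRIM49B, TRIM56 and TRIM66 had 6 each.

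**Figure D3:**
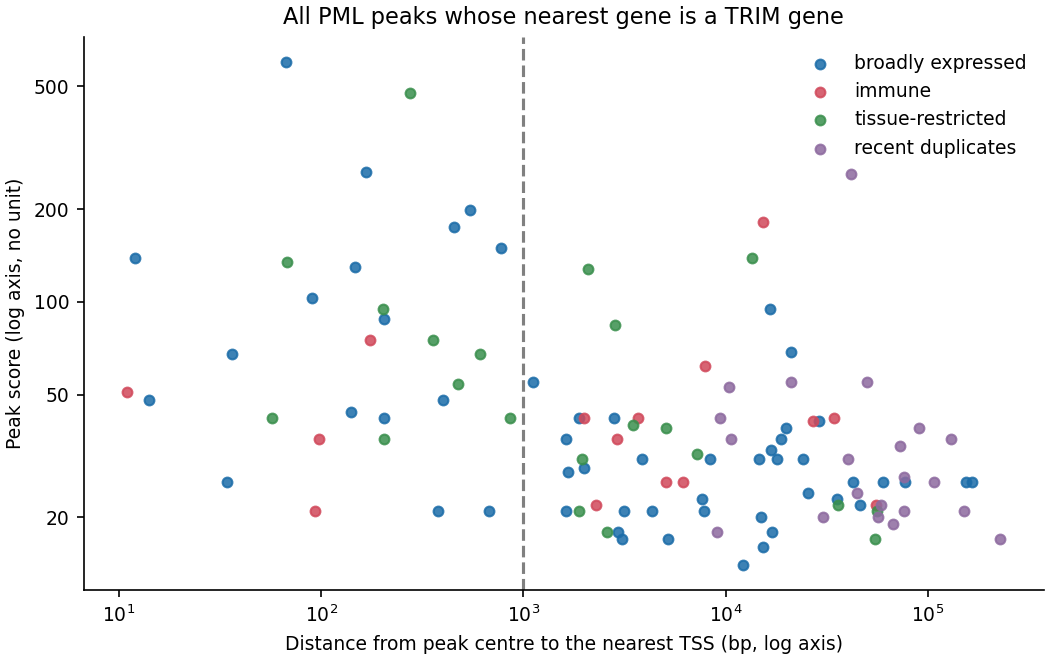
Each point is 1 of the 111 peaks whose nearest gene is a TRIM gene, by distance from the TSS (log axis, bp) and score (log axis, no unit), coloured by role group; the dashed line marks 1000 bp. All 21 peaks of the recent duplicates lie right of the line, and 1 of them, given to TRIM43B, reaches 259.

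The recent duplicates had peaks near them in the table but none at their genes' starts. The 6 named genes (TRIM43, TRIM43B, TRIM49, TRIM49B, TRIM51 and TRIM64C) held 21 peaks, all intergenic in the table's annotation. Of these, 19 (90.5%) lay over 10000 bp from a TSS and 7 (33.3%) were in CpG islands. For all peaks of protein-coding genes, 29.6% were intergenic, 52.8% lay over 10000 bp away and 7.52% carried the CpG island label. In the family that label stood only on intron and intergenic peaks. The 33.3% and the 7.52% are therefore not like for like, since all 21 peaks were intergenic. The nearest peaks were 40381 bp from TRIM43 (score 31), 30374 bp from TRIM43B (score 20), 20957 bp from TRIM49 (score 55), 50211 bp from TRIM49B (score 55), 9088 bp from TRIM51 (score 18) and 9354 bp from TRIM64C (score 42). The TRIM49 peak lay within the longer RefSeq gene body, the others of the 6 outside. These genes have near-identical copies, and the sources used here do not say how the authors placed reads that match several copies. Its part in the count of 0 was not tested.

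Many TRIM genes lie in clusters, here taken as neighbours no more than 500 kb apart. Of 38 clustered RefSeq TRIM genes, 8 had a start-site peak (21.1%, interval 9.55 to 37.3%), against 25 of 39 single genes (64.1%, interval 47.2 to 78.8%), and these intervals do not overlap. Of all RefSeq protein-coding genes, 61.7% had one. Of the clustered genes 13 were recent duplicates, and of the single genes 3. The intervals treat all genes as independent, although such copies share sequence. Both read-through genes, which overlap other TRIM genes, were clustered and had no start-site peak. Without the recent duplicates, 8 of 25 clustered genes had a peak (32%, interval 14.9 to 53.5%) and 25 of 36 single genes (69.4%, interval 51.9 to 83.7%). The read-through genes stay among the 25. These intervals overlap slightly, which does not show that the shares are alike. On chromosome 11, the cluster of the antiviral genes TRIM5, TRIM6, TRIM34 and TRIM22 had 1 peak in 122 kb, and none at a start site. The cluster on the same chromosome from TRIM77 to TRIM49C, with 7 genes, had 1 peak in 363 kb. The TRIM60, TRIM61 and TRIM75 cluster on chromosome 4 had 0 peaks in 106 kb. In the MHC region of chromosome 6, TRIM26 and TRIM39 had a start-site peak and TRIM31, TRIM40, TRIM10, TRIM15 and the read-through gene did not.

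The cluster of TRIM7, TRIM41 and TRIM52 near the end of chromosome 5 was among those rich in peaks. All 3 genes had a start-site peak, with scores of 477, 600 and 386, and 20 peaks lay in the 67.2 kb from TRIM7 to TRIM52, or 29.8 per 100 kb. The TRIM11 and TRIM17 cluster on chromosome 1 was as dense, with 7 peaks in 23.2 kb (30.2 per 100 kb) and a start-site peak at both genes, but its highest score was 103. The TRIM7 and TRIM41 start sites are 18.1 kb apart, and those of TRIM41 and TRIM52 37.9 kb. In the plotted 107 kb, which adds some flank on both sides, 11 of 28 peaks scored 100 or more. Between TRIM41 and TRIM52 lay the peak of RACK1, which encodes a scaffold protein of the ribosome, at 209.

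These high scores stood in a region where scores were high in general. TRIM genes themselves are left out of the neighbours counted here. Of the 15 such RefSeq protein-coding genes within 1 Mb of TRIM41, 12 had a start-site peak, with a median score of 217.5 and a highest of 435. The surrounding 10 Mb window, which the chromosome end cuts short, held 522 distal peaks (over 10000 bp from any TSS), where the median 10 Mb bin held 74. None of these neighbours scored higher than TRIM41 or TRIM7, and 2 scored higher than TRIM52. DNA copy number was not measured, and the part of the region in the 3 scores was not tested. By contrast, TRIM44 scored 264 with 75 such distal peaks around it, a median of 74 over its neighbours with a peak, and no neighbour above it. TRIM8 and TRIM27 also had no higher neighbour, with 28 and 27 distal peaks around them, while TRIM69 was below all 26 of its neighbours that had a peak.

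The same region holds tRNA genes, which RNA polymerase III transcribes. All 10 RefSeq tRNA genes of the plotted stretch lay under a peak, and 32.1% of all 443 RefSeq tRNA genes did. The stretch was chosen around genes with high peaks, and the 10 genes share 5 peaks, 4 of them under a single peak 5559 bp wide, so the share in the stretch carries no interval and is a description only. The promoter peak of TRIM41 covered 2 of them, TRK-CTT2-3 and TRV-CAC1-5, and the TRIM7 peak of 128 covered 2 more, TRA-TGC3-1 and TRK-CTT2-2. The promoter peaks of TRIM7 (477) and of TRIM52 (386) covered none. Among the 30 TRIM promoter peaks, TRIM41's was the only one over a tRNA gene, and 27 of 12106 promoter peaks of all protein-coding genes were. How much of the TRIM41 score came from the tRNA genes was not tested.

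**Figure D4:**
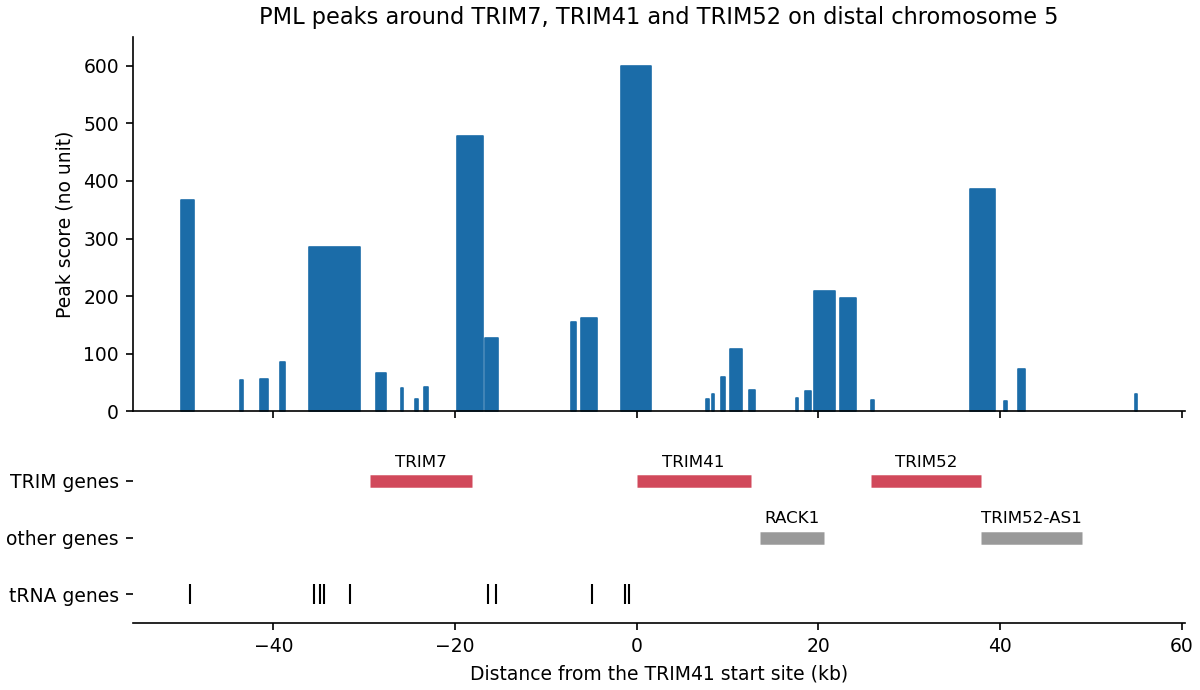
Upper panel, PML peaks around TRIM7, TRIM41 and TRIM52, each bar as wide as the peak and as high as its score (no unit), against distance from the TRIM41 start site (kb); lower panel, TRIM genes, 2 other genes and tRNA genes (ticks). The tallest bars stand at the TRIM41 (600) and TRIM7 (477) start sites, and all 10 tRNA genes lie under a bar.

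The sequences printed above differ in CpG content along with the peaks, and so did the family's promoters. CpG pairs were counted in the RefSeq window from 250 bases before to 50 after a start site (300 bases, the richest window of a gene), which 62 of the 77 TRIM genes had. The 24 with a start-site peak had a median of 27.5 CpG pairs (range 3 to 47), and the 38 without had 3 (range 0 to 36). For all protein-coding genes these medians were 29 and 8. The recent duplicates had a median of 2 over 14 genes, although TRIM73 and TRIM74 had 28 each. Immune genes had a median of 19 with a peak and 6 without.

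Genes were split by CpG content into 3 groups of nearly equal size. In the lowest group (0 to 17 pairs) 7 of 40 TRIM genes had a start-site peak (17.5%, interval 7.34 to 32.8%), against 26.0% of other genes. In the middle group (18 to 30 pairs) 10 of 14 had one (71.4%, interval 41.9 to 91.6%), against 77.2%. In the highest group (31 to 69 pairs) 7 of 8 had one (87.5%, interval 47.3 to 99.7%), against 89.8%. The TRIM share was below that of other genes in each group, by most in the lowest, which held 40 of the 62 TRIM genes. All 3 intervals include the share of other genes, and the part of CpG content in the family's lower share was not tested. The exceptions with CpG-rich windows and no start-site peak were TRIM47 (36 pairs), TRIM32 (30), TRIM73 and TRIM74 (28 each) and TRIM71 (27).

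**Figure D5:**
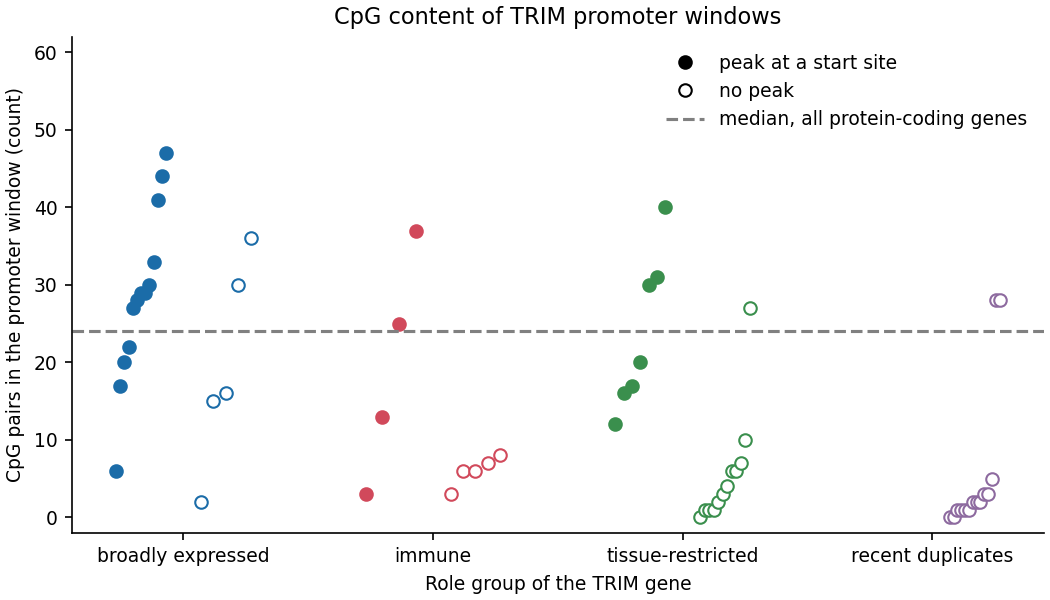
Each circle is 1 TRIM gene, placed by the number of CpG pairs in its promoter window and by role group; filled circles have a PML peak at a start site, open circles have none, and the dashed line is the median of 24 over all protein-coding genes. The filled circles have a median of 27.5 pairs and the open ones of 3.

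Short motifs were searched by their letters on both strands of the same windows. GAAANNGAA, the core of the interferon-stimulated response element, was in 11 of 62 TRIM windows (17.7%), against 9.22% of all 15842 promoter windows, and in 5 of 9 immune genes. The matches of 5 genes are shown with flanking bases, with the matched letters in capitals, to set antiviral genes without a peak beside others with one. TRIM5 and TRIM34 had no start-site peak, TRIM14 and TRIM69 had weak ones (36 and 21), and the broadly expressed TRIM44 had one of 264. So the motif occurred in windows with and without a peak, in 5 of 24 and 6 of 38.
TRIM5, 26 bases before the start site: gtttatctTTCACTTTCctgccctg
TRIM34, 89 before: ccaaaaatTTCACTTTCatttctca
TRIM14, 25 before: gccgaggtTTCGGTTTCccttggga
TRIM69, 61 before: atgagggtTTCTCTTTCtcttaagc
TRIM44, 35 before: ctgacgggGAAAGGGAAagtggaac

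The TATA box (TATAAA) was in 14 of 62 TRIM windows (22.6%, against 12.4% of all), in 2 of the 24 with a start-site peak and in 12 of the 38 without. Of those 12, 8 were recent duplicates, whose promoters share sequence and are not independent. TTCNNNGAA, the gamma-activated site, was in 12 TRIM windows (19.4%, against 8.98%), none of them of an immune gene. It was in 4 of the 24 with a start-site peak and in 8 of the 38 without. Of the 12 windows, 5 were of recent duplicates, to which the same limit applies. The core of the site bound by ZNF143 and RONIN, TACANNTCC, was in 3 (4.84%, against 5.53%), those of TRIM49, TRIM49C and TRIM67. The ETS motif CCGGAAG was in 6 (9.68%, against 16.5%), among them TRIM41, where it can be read in the printed sequence. The NRF1 motif GCGCNTGCG was in 3 (4.84%, against 12.5%) and CCAAT in 28 (45.2%, against 42.1%). These matches describe letters in the windows and say nothing of the factors that bind them.

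Genes that work with TRIM proteins were read from the same list. PML, the immunoprecipitated member, was the nearest gene of no peak. The same held for MID1 and MEFV, which encode TRIM proteins under other names. MID2, a microtubule-bound TRIM protein, had a promoter score of 68. All 10 named co-repressor partners of TRIM28 had a promoter peak, with a median score of 129.5 (63 over all genes). At RefSeq start sites 12 of 12 had a peak, against 61.7% of all RefSeq protein-coding genes. The highest were CHD4, a remodelling ATPase, at 206, ZNF274, a KRAB zinc-finger protein, at 181, and SETDB1, the H3K9 methyltransferase that TRIM28 recruits, at 173.

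Antiviral sensing genes on which TRIM proteins act had a promoter peak in 9 of 11 named cases, with a median score of 61. TRAF6, a signalling ligase, had 149, the DNA sensor CGAS 138 and the adaptor MAVS 104. RIG-I, the target of TRIM25, had 48 (named DDX58 in the table). IKBKE and STING1 (named TMEM173) had none. Of the nuclear receptor and SMAD partners of TRIM24, TRIM28 and TRIM33, all 5 named genes had one, with a median of 75, RXRA at 181 and SMAD4 at 122 among them, while ESR1 was nearest to no peak. These lists are small and are to be read against the 78.6% of all named genes and their median score of 63.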

How the data were processed

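PML ChIP and input libraries of MDA-MB-231 cells (2 of each) were measured, and 1 merged peak table was deposited. The submitters' processing notes list the build hg38 and 5 tools, HOMER 4.11.1, MACS2 2.1.1.20160309, Picard 2.0.1, BWA 0.7.12 and Trimmomatic 0.36, and their settings are not given in the sources used here. Per the file headers, the authors gave each peak a score, a distance in bp to the nearest TSS and an annotation. The score's scale is not stated, so it was used only to rank and describe peaks.

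A gene's promoter score is that of its highest promoter peak. RefSeq tables (GRCh38.p14) were matched by gene ID. A start site was that of the RefSeq promoter windows where given (15842 of 20033 protein-coding genes, 62 of 77 TRIM genes), otherwise either gene end. Shares carry exact Clopper-Pearson 95% intervals, for counting error only. No test was run, since the list has no replicates. Role groups, domain classes and gene lists come from general knowledge, and the members and lists were chosen with earlier results of these data known. Full values are given for the 12 highest promoter scores, the 3 highest of each role group, the 3 lowest, all named genes without a promoter peak and the 6 highest distal peaks. Alternatives changed the window, the peaks kept, the genes counted and the assignment. The overlap, the count without recent duplicates and the difference from other genes were chosen after seeing the data. Python 3.11.15, numpy 2.4.6, scipy 1.17.1 and pandas 2.3.3 were used, and the counting was tested on simulated data.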

Additional observations from a re-analysis of the deposited data

How the results depend on the processing

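Of the values computed under 9 other settings, 41 of 56 shares and medians stayed within their counting interval and 15 moved out of it. With a 5000 bp window the broadly expressed share was 95.2%. With the 5000 highest-scoring peaks (5086 with ties), the TRIM share was 23.8% and the difference from other genes, -11.9 percentage points in the report's setting, reversed to 0.136; the broadly expressed share was 38.1%, the tissue-restricted share 22.2% and the immune share 0%, and the TRIM and broadly expressed median scores were both 162.5. Among all RefSeq genes by table name, the TRIM share was 36.4% and the tissue-restricted share 31.8%. With the annotation column's promoter class, the TRIM share was 35.7% and the broadly expressed share 38.1%. By RefSeq start site the TRIM share was 42.9% and the tissue-restricted share 36.4%, and by overlap with the RefSeq promoter window 39.0% and 31.8%. Other genes stood at 87.0% with the 5000 bp window, 23.7% with the 5000 highest-scoring peaks and 54.5% among RefSeq genes by table name. Their shares were 46.3% with the annotation class, 61.8% by RefSeq start site and 53.8% by overlap. The broadly expressed group, above other genes in the report's setting (81.0 against 78.6%), was below them with the annotation class (38.1 against 46.3%) and with a 500 bp window (66.7 against 70.6%). Over the settings other than the 5000 highest-scoring peaks, the difference ran from -18.9 to -0.821 percentage points, the last without the recent duplicates. The immune median could not be computed from the 5000 highest-scoring peaks, since no immune gene kept a promoter peak. No replicate could be left out. No paired analysis was possible because the authors merged the duplicates into 1 peak list.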
